A study of Mus musculus with 12 samples.

Results

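The genes described here belong to the integrated stress response and to protein folding in the endoplasmic reticulum (ER). They are 34 genes, chosen by name and matched by symbol, of 52636 genes in each of the 2 expression tables. The ATF4 arm holds 14 of them. Its core group is Atf4, Ddit3, Trib3, Chac1 and Sesn2. The figures label this group ATF4 and its regulators, which does not hold for every gene in it, Ddit3 for one being a target of ATF4. The rest are 8 genes of amino acid synthesis and uptake (Asns, Psat1, Phgdh, Shmt2, Mthfd2, Slc7a11, Slc7a5, Slc3a2) and the receptor gene Vldlr. The ER arm holds the other 20: 13 chaperones and folding enzymes, 3 genes of ER degradation (Herpud1, Edem1, Sel1l) and 4 sensors and transducers of the unfolded protein response (Xbp1, Atf6, Ern1, Eif2ak3). All 34 were found in both tables, and all 34 averaged 1 or more transcripts per 1000000 (TPM) in each cell type, the level required for testing.

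Bulk RNA-seq of cultured mouse cells covered 12 libraries in 4 groups of 3. Airway smooth muscle cells (SMCs) received either scrambled RNA (Scr) or a small interfering RNA against Klf4 (siKlf4), and so did PDGFR-β+ cells of the lung, to ask how this transcription factor acts in each cell type. The sample titles call the SMCs lung airway SMCs, while another label names a commercial stock of tracheal smooth muscle cells, from which no animals can be counted. The PDGFR-β+ cells carry the labels C57BL/6, 12 weeks of age, and genotype WT with Scr or Klf4 KD with siKlf4. According to the study's methods they were Zs+ cells, sorted from mice carrying the inducible driver Pdgfrb-CreERT2 and the reporter ROSA26R(Zs/+) after tamoxifen, a driver that marks several kinds of fibroblasts and pericytes. Each culture had 50 nM siRNA or Scr RNA for 6 h and then 72 h in SMC medium, and several transfection reagents and siRNA suppliers are named in the methods. The p-values measure the spread between these libraries, which the study calls independent experiments without naming animals.

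As background, the integrated stress response starts when kinases, PERK (Eif2ak3) among them, phosphorylate eIF2α. General protein synthesis then slows while translation of ATF4 increases, and ATF4 turns on genes for amino acid synthesis, amino acid uptake and, under lasting stress, CHOP (Ddit3). The unfolded protein response adds the sensors IRE1 (Ern1) and ATF6, which act through spliced XBP1 and cleaved ATF6 on chaperone and ER degradation genes. Lung fibroblasts and SMCs secrete collagens and other matrix proteins, which fold in the ER before export. Because ATF4 is controlled mainly by translation, and XBP1 by splicing, the gene-level TPM of Atf4 and Xbp1 does not measure their activity.

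Klf4 (ENSMUSG00000003032.8, chr4:55527143-55532466, reverse strand, mm10) was left at 21.9% of its Scr mean in SMCs and at 9.16% in PDGFR-β+ cells, so the knockdown was visible in each. Of the 6 SMC columns, 2 (a Scr and a siKlf4 library) are unnumbered. Their deviations from their group means correlated across genes at 0.361 with each other, against 0.185 and 0.199 for the 2 same-numbered pairs. With the numbered libraries of the opposite group they correlated at -0.19 to -0.217, which follows in part from centring each group on its mean. SMC values are therefore given in the order unnumbered library, replicate 2, replicate 3, and SMC results are repeated on the 4 numbered libraries alone. Of 8 smooth muscle markers, the summed level was 1495 to 2284 TPM in SMC Scr libraries and 5551 to 6408 TPM in PDGFR-β+ Scr libraries, Acta2 being the highest in each, and Myocd was under 1 TPM in all 4 groups. Acta2, Tagln, Myh11, Cnn1 and Lmod1 were higher in every PDGFR-β+ Scr library, and Smtn and Myocd overlapped. Des was higher in every SMC Scr library, at 2.39 to 2.99 against 1.56 to 2.37 TPM. By their sum, the smooth muscle markers therefore did not set the SMCs above the PDGFR-β+ cells. With siKlf4 this sum was 3411 to 4174 TPM in SMCs and 4708 to 5003 TPM in PDGFR-β+ cells. Of 8 markers of PDGFR-β+ mesenchyme, the summed level overlapped, at 4811 to 4891 TPM in SMC Scr and 4140 to 5087 TPM in PDGFR-β+ Scr libraries. Pdgfrb itself was measured at 213 to 216 TPM in SMC Scr libraries and at 423 to 474 TPM in PDGFR-β+ Scr libraries. Col1a1, Cspg4 and Rgs5 were likewise higher in every PDGFR-β+ Scr library, whereas Pdgfra, Col1a2, Col3a1 and Kcnj8 were higher in every SMC Scr library. Of other lineages, 5 macrophage markers summed to 28.6 to 29.9 TPM in PDGFR-β+ Scr and 18.7 to 22.8 TPM in PDGFR-β+ siKlf4 libraries, mostly Lyz2, with Ptprc and Adgre1 under 1 TPM in both. The 6 endothelial markers summed to at most 18.4 TPM in any library, mostly Kdr, with Cldn5 listed at 0 in all 12, and 6 epithelial markers to at most 0.947 TPM, with Sftpc, Sftpb and Krt8 listed at 0 in all 12. In bulk RNA, fewer cells of a type and less RNA per cell cannot be told apart.

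Promoter sequences are shown first, because some of the members carry 1 of 2 stress elements. Windows from 250 bases before to 50 bases after the annotated start were taken from RefSeq on GRCm38.p6 for 30 of the 34 genes, at 32 start sites, with none for Slc7a5, Manf, Hyou1 and Atf6. The ER stress response element (ERSE) was searched as CCAAT, 9 further bases and CCACG, on both strands, and the core of the C/EBP-ATF response element (CARE), read by ATF4, as TGATGNAA on both strands. ERSE matched in 7 of the 11 chaperone genes with a window and in 0 of the 13 genes of the ATF4 arm with a window, against 0.119% of all 32851 promoter windows. The CARE core matched in 5 of the 13 genes of the ATF4 arm and, in the ER arm, in Herpud1 alone of 17 genes, against 3.97% of all windows. The XBP1 and ATF6 element TGACGTGG matched in 0 of the 30 genes (0.676% of all windows), and the letters CACCC, common to sites of KLF factors, matched in 17 of 30 (56.7%, against 57.5% of all windows), which is close to that background. The members were chosen by name for these pathways, so a share above that of all windows carries no test. Members are counted by gene and the background by window. A match describes letters, not binding. Only these exact letters were searched, within these windows, so the lack of a match does not show that a gene lacks such an element.

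The 8 ERSE matches of the chaperone genes follow, since all 7 of these genes fell in PDGFR-β+ cells. Of the 20 ER genes, 15 fell there, against 15.3% of all genes tested. The other 8 of these 15, Herpud1 and Hyou1 among them, have no match or no window. Each stretch is written 5′ to 3′ along its gene, with the element's fixed parts in capitals. The letters CGTGG and ATTGG mark an element on the opposite strand.
Hspa5 (chr2:34772020-34772048, forward strand): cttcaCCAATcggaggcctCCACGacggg
Hsp90b1 (chr10:86705513-86705676, reverse strand): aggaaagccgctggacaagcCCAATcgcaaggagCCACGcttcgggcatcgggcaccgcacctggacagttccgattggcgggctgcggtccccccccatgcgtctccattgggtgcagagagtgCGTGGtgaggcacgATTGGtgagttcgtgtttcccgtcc
Calr (chr8:84847055-84847113, reverse strand): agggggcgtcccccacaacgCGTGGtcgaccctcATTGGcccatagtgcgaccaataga
Canx (chr11:50325780-50325838, reverse strand): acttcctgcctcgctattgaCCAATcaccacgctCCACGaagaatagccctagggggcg
Pdia6 (chr12:17266471-17266529, forward strand): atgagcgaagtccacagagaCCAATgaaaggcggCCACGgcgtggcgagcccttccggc
Dnajc3 (chr14:118937807-118937865, forward strand): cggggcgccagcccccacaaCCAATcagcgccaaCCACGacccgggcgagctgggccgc
Creld2 (chr15:88819500-88819558, forward strand): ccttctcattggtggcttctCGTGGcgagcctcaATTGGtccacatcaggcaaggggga
Hsp90b1, which encodes GRP94, holds a pair of matches in 1 stretch. Only the Hspa5 stretch overlaps an exon in GENCODE M21, of a transcript of Hspa5 that starts further upstream, and is kept short for that reason. The other 6 lie upstream of the annotated gene, outside any annotated exon.

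The CARE core, with its fixed letters in capitals, is shown for 5 of the 6 genes that hold it, to set beside the ERSE genes. Where the capitals end in CATCA, the core lies on the opposite strand.
Chac1 (chr2:119351029-119351076, forward strand): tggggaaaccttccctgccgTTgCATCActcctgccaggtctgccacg
Slc7a11 (chr3:50443633-50443699, reverse strand): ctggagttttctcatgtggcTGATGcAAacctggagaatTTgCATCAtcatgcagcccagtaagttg
Asns (chr6:7693214-7693243, reverse strand): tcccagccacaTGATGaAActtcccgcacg
Vldlr (chr19:27216809-27216838, forward strand): agcagcaatagTTgCATCAgcgctcctagc
Herpud1 (chr8:94386297-94386344, forward strand): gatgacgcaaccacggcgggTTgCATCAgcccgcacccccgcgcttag
Slc7a11 holds the core on each strand, in the 86 bases before its start. The Asns and Vldlr stretches overlap exons of these genes in GENCODE M21, the Vldlr match being 200 to 193 bases before the second of its RefSeq starts. The stretch of Herpud1 lies upstream of that gene and inside the annotated gene Gm15890. In Trib3 the match lies 15 bases after the start and is not printed.

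**Figure D1:**
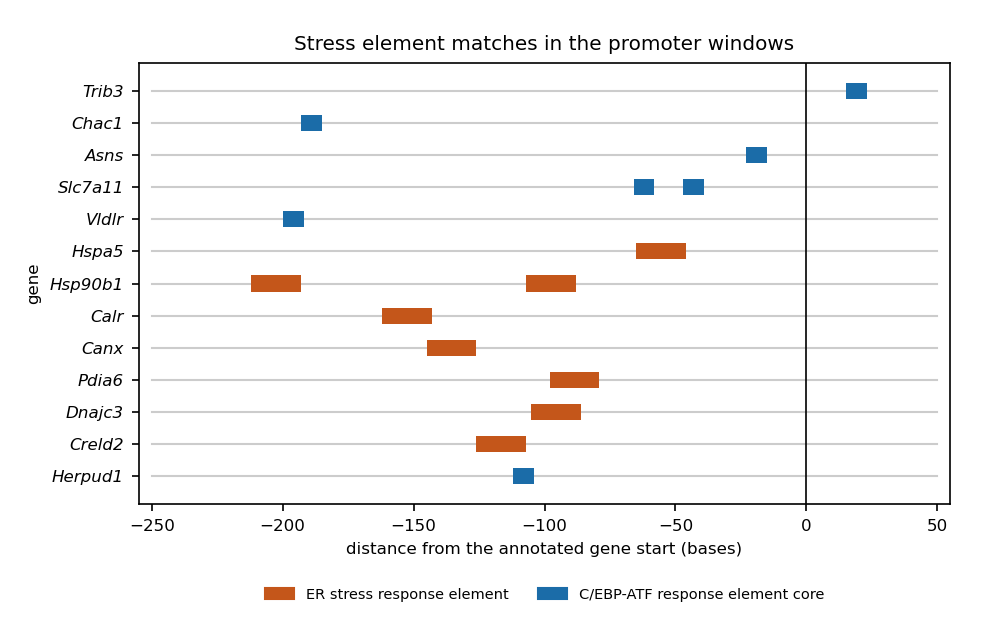
Positions of ERSE (orange) and CARE core (blue) matches in the promoter windows of the 13 genes that hold either. The horizontal axis is the distance from the annotated gene start in bases, and each grey line is a window from 250 bases before to 50 bases after the start. The 8 ERSE matches lie in chaperone genes, all of them upstream of the start.

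In PDGFR-β+ cells, all 7 chaperone genes with a match fell with siKlf4, by 0.31 to 0.87 on the log2 scale, with a median log2 fold change of -0.70. Over all genes tested, 15.3% fell and 25.3% rose there, and of the 20 genes of the ER arm 15 fell. Of the 4 chaperone genes with a window and no match, Pdia4 fell and Pdia3, Dnajb9 and Sdf2l1 did not pass the test, with a median of -0.22. In SMCs the same 7 genes had a median of 0.30, with Hsp90b1 and Canx higher and 0 lower, against 15.6% higher and 12.9% lower over all genes. Of the 6 genes with a CARE core, Slc7a11 rose in PDGFR-β+ cells, Vldlr and Herpud1 fell, and Trib3, Asns and Chac1 did not pass the test. For the letters CACCC, 9 of 17 genes with a match and 8 of 13 without fell in PDGFR-β+ cells. These counts describe the members and carry no test.

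In PDGFR-β+ cells, siKlf4 lowered most of the ER arm and split the ATF4 arm. Of the 34 genes, 19 fell and 5 rose, by limma on log2(TPM + 1) with a Benjamini-Hochberg adjusted p under 0.05. Over all 13694 genes tested, 15.3% fell and 25.3% rose (40.6% in either direction), so falls were 55.9% of the members against 15.3% of all genes, and rises 14.7% against 25.3%. Of the ER arm, 15 of 20 genes fell and 0 rose, with a median log2 fold change of -0.55, against 0.097 over all genes. Of the ATF4 arm, 5 of 14 rose (Ddit3, Sesn2, Slc7a11, Slc7a5, Slc3a2) and 4 fell (Psat1, Phgdh, Mthfd2, Vldlr), with a median of -0.05. With the libraries scaled by median ratios, the median over all genes moved by -0.10, from 0.097 to -0.003, the split of all calls moved from 3461 higher and 2098 lower to 2639 higher and 2977 lower, and 25 members fell and 5 rose, the ATF4 arm then holding 5 rises and 6 falls. Without regard to the test, all 3 siKlf4 libraries lay below all 3 Scr libraries for 21 members, against 19.8% of all genes, and above them for 6, against 33.9%. The values below are on the TPM scale, relative to which that shift applies.

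In SMCs, few of the genes moved, and by less. There, 6 rose (Edem1, Vldlr, Canx, Hsp90b1, Ddit3 and Dnajb9) and 2 fell (Phgdh and Asns), which is 23.5% of the members against 28.5% of all 13709 genes tested (15.6% higher and 12.9% lower). The share of SMC calls among the members was thus close to that of all genes. The libraries of the 2 groups did not overlap for 9 members with siKlf4 higher, against 25.6% of all genes, and for 3 with siKlf4 lower, against 21.5%. The median log2 fold change was 0.15 in the ER arm and 0.09 in the ATF4 arm, against 0.017 over all genes. On the 4 numbered libraries alone, 4 members rose and 3 fell, while of all 13743 genes tested 2140 rose and 1825 fell. With a term for the naming of the columns in the 6 libraries, 8 members rose and 2 fell. That fit also called more of all 13709 genes, 2998 higher and 2494 lower, against 2136 and 1774 in the main fit. Of the 8 SMC calls, 6 were lost in at least 1 fit with a library left out. The rises numbered 2 without Scr replicate 2 or without siKlf4 replicate 3, and 3 without Scr replicate 3 or without siKlf4 replicate 2, and the falls numbered 0 in each of these 4 fits. Only the rises of Edem1 and Canx passed the test with each of the 6 libraries left out in turn.

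**Figure D2:**
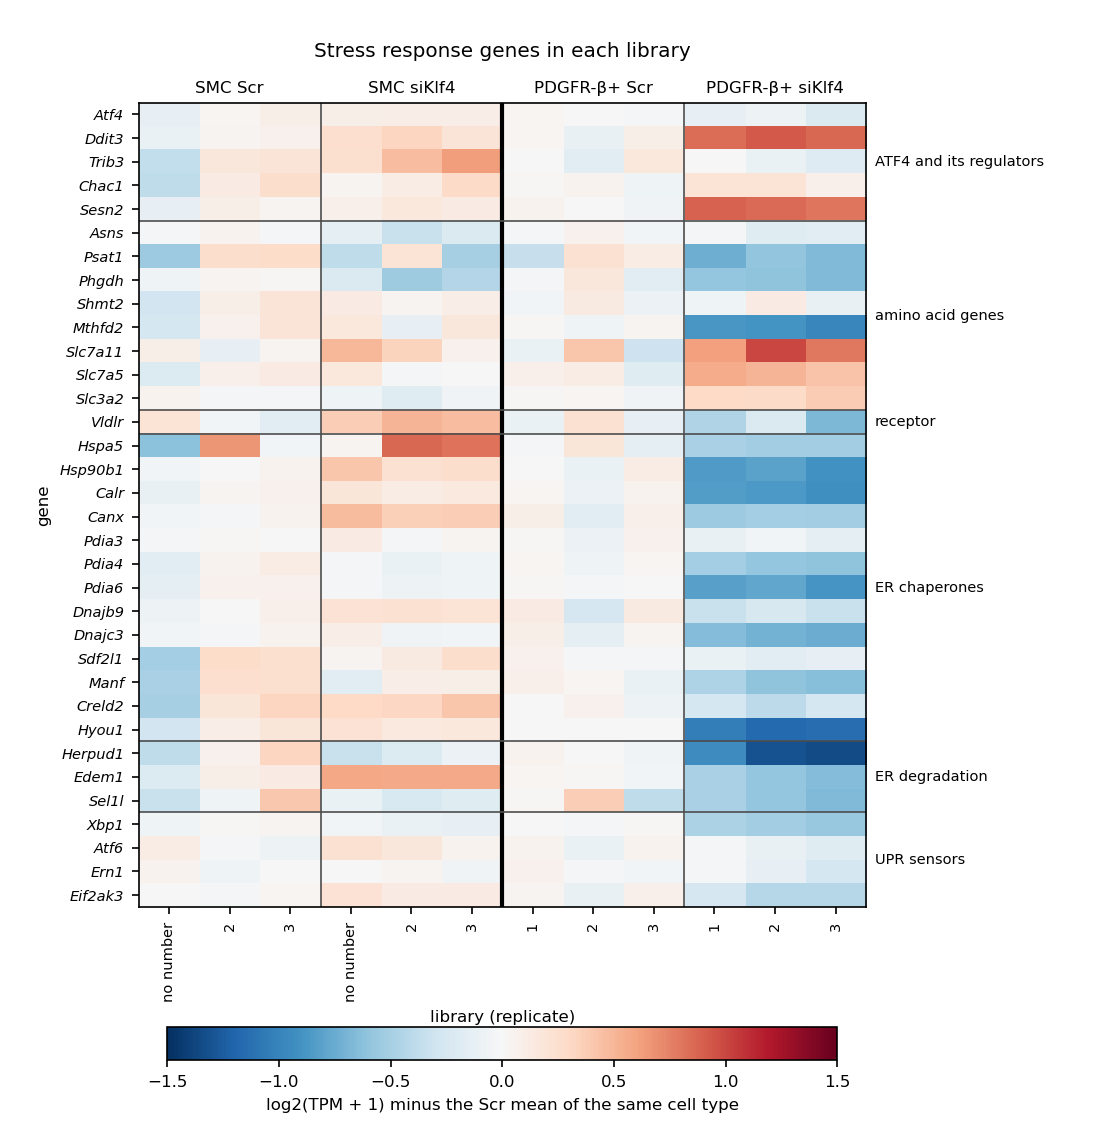
Each row is 1 of the 34 genes and each column 1 of the 12 libraries, coloured by log2(TPM + 1) minus the mean of the 3 Scr libraries of the same cell type (blue lower, red higher). In the 3 PDGFR-β+ siKlf4 columns the ER rows lie below the Scr mean, with Herpud1 and Hyou1 the lowest, while Ddit3, Sesn2 and the 3 transporter rows are higher. Among SMC Scr libraries, the unnumbered library is lower for Hspa5, Sdf2l1, Manf and Creld2.

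ATF4 itself was among the most abundant of its arm and did not pass the test in either cell type. Atf4 (ENSMUSG00000042406.7, chr15:80255184-80257541) was 263, 295 and 307 TPM in Scr and 306, 308 and 307 TPM in siKlf4 SMCs (log2 fold change 0.093, standard error 0.072, adjusted p = 0.366). In PDGFR-β+ cells, the levels in replicates 1 to 3 were 241, 235 and 231 TPM under Scr and 217, 224 and 203 TPM under siKlf4 (log2 fold change -0.13, standard error 0.064, adjusted p = 0.134). The PDGFR-β+ groups did not overlap, but the difference did not pass. With median-ratio scaling the same difference passed, at an adjusted p of 0.00891.

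Ddit3 and Sesn2 had the largest rises of all members in PDGFR-β+ cells. Ddit3 (ENSMUSG00000025408.15, chr10:127290774-127296288), which encodes the pro-apoptotic factor CHOP, was 161, 146 and 168 TPM under Scr and 285, 301 and 287 TPM with siKlf4, 184% of the Scr mean (log2 fold change 0.87, standard error 0.073, adjusted p = 1.3e-04). Every siKlf4 library lay above every Scr library. Sesn2 (ENSMUSG00000028893.8, chr4:132492032-132510501), a leucine sensor that restrains mTORC1, rose from 40.5, 39.2 and 37.7 TPM to 73.0, 71.3 and 69.1 TPM (log2 fold change 0.85, standard error 0.068, adjusted p = 1.1e-04). Both rises passed the test with each PDGFR-β+ library left out in turn.

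The remaining genes of the core group did not change in PDGFR-β+ cells beyond the test. Trib3, a pseudokinase that restrains ATF4 and CHOP, ranged from 17.5 to 22.6 TPM over the 6 libraries (log2 fold change -0.092, standard error 0.11, adjusted p = 0.527). Chac1, which degrades glutathione, was 16.1, 16.5 and 15.2 TPM under Scr and 18.6, 18.5 and 16.8 TPM with siKlf4 (log2 fold change 0.16, standard error 0.084, adjusted p = 0.164). Its siKlf4 libraries were all higher, and its log2 fold change was within 2 standard errors of 0.

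In SMCs, Ddit3 alone of the 5 core genes passed. Its level was 60.1, 66.2 and 67.3 TPM under Scr and 77.2, 81.0 and 74.0 TPM with siKlf4 (log2 fold change 0.26, standard error 0.074, adjusted p = 0.0388), and the groups did not overlap. The call was lost in all 6 fits with a library left out, the adjusted p lying between 0.0632 (without Scr replicate 3) and 0.134 (without siKlf4 replicate 2), nor on the numbered libraries, at 0.21 (adjusted p = 0.0725). Trib3 was 6.56, 9.93 and 10.2 TPM under Scr and 10.5, 12.5 and 14.0 TPM with siKlf4 (log2 fold change 0.44, standard error 0.18, adjusted p = 0.108). The unnumbered Scr library was the lowest, and the groups did not overlap. With a term for the naming of the columns (unnumbered or numbered) Trib3 passed as higher, at an adjusted p of 0.0131, and so did its difference between cell types, at 0.0136. Sesn2 was 54.3, 63.0 and 61.2 TPM under Scr and 62.7, 66.2 and 64.6 TPM with siKlf4. Sesn2 and Chac1 overlapped between the SMC groups, with log2 fold changes of 0.12 and 0.15.

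Of the 8 amino acid genes, 3 rose (37.5%), 3 fell (37.5%) and 2 did not pass in PDGFR-β+ cells, against 25.3% higher and 15.3% lower over all genes. The 3 that rose encode transporters and the 3 that fell enzymes, a division made after the values were seen. With median-ratio scaling 3 rose and 4 fell. Slc7a11, the cystine and glutamate exchanger xCT, was 7.46, 11.1 and 6.35 TPM under Scr and 13.0, 17.2 and 14.8 TPM with siKlf4 (log2 fold change 0.81, standard error 0.19, adjusted p = 0.0141). Replicate 2 was the highest of each group, and without siKlf4 replicate 2 the adjusted p was 0.0513. Slc7a5, the large neutral amino acid transporter LAT1, rose from 53.7, 54.8 and 44.6 TPM to 75.2, 72.9 and 68.9 TPM (log2 fold change 0.50, standard error 0.10, adjusted p = 0.00519). Slc3a2, the heavy chain CD98 that pairs with both of these transporters, rose from 136, 137 and 129 TPM to 165, 164 and 175 TPM (log2 fold change 0.32, standard error 0.064, adjusted p = 0.00646). The latter 2 rises passed with each library left out.

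The falling enzymes belong to serine synthesis and mitochondrial folate metabolism. Mthfd2, a mitochondrial folate enzyme, fell from 51.1, 48.1 and 51.8 TPM to 27.1, 26.6 and 25.1 TPM, 52.1% of the Scr mean (log2 fold change -0.91, standard error 0.073, adjusted p = 1.1e-04). Phgdh, the first enzyme of serine synthesis, fell from 256, 291 and 233 TPM to 173, 170.2 and 163 TPM (log2 fold change -0.61, standard error 0.09, adjusted p = 0.00163). Psat1, the next enzyme of that pathway, was 127, 190.2 and 175 TPM under Scr and 97.0, 107 and 102 TPM with siKlf4 (log2 fold change -0.66, standard error 0.14, adjusted p = 0.00919). The Psat1 Scr libraries were widely spread, yet each exceeded every siKlf4 library, and these 3 falls passed with each library left out. Shmt2, which feeds serine into the folate pathway, was 99.6, 112 and 95.7 TPM under Scr and 97.7, 111 and 94.7 TPM with siKlf4 (log2 fold change -0.016, standard error 0.092, adjusted p = 0.903). Asns, which makes asparagine, was 109.8, 117 and 109 TPM under Scr and 111, 98.9 and 100.5 TPM with siKlf4 (log2 fold change -0.12, standard error 0.073, adjusted p = 0.241). Both overlapped between the groups and did not pass, although with median-ratio scaling Asns passed as lower (adjusted p = 0.0299).

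In SMCs, none of the 3 transporter genes passed the test, and 2 of the enzyme genes, Phgdh and Asns, fell. Phgdh was 168, 181 and 177 TPM under Scr and 150.3, 121 and 129 TPM with siKlf4 (log2 fold change -0.40, standard error 0.091, adjusted p = 0.0181). The groups did not overlap, and the numbered libraries alone gave -0.52 (adjusted p = 0.00627). The call was lost when any 1 of the 4 numbered libraries was left out, at adjusted p-values from 0.0525 (Scr replicate 3) to 0.0645 (siKlf4 replicate 3). Asns was 107, 112 and 105 TPM under Scr and 97.0, 85.7 and 92.5 TPM with siKlf4 (log2 fold change -0.23, standard error 0.07, adjusted p = 0.0464). That call held in 1 of 6 fits with a library left out, the highest adjusted p being 0.158 without siKlf4 replicate 2, and on the numbered libraries it was -0.28 (adjusted p = 0.0357). Psat1 varied within each SMC group, at 80.1, 141 and 142 TPM under Scr and 89.4, 135 and 82.6 TPM with siKlf4, and did not pass (adjusted p = 0.554). The remaining enzymes overlapped between the SMC groups. Shmt2 was 63.4, 82.7 and 88.7 TPM under Scr and 84.3, 79.6 and 82.9 TPM with siKlf4, and Mthfd2 28.5, 36.1 and 39.3 TPM under Scr and 38.3, 31.4 and 38.9 TPM with siKlf4.

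Among the transporter genes in SMCs, Slc7a11 was 3.60, 2.97 and 3.45 TPM under Scr and 5.12, 4.46 and 3.55 TPM with siKlf4, the lowest level among the 34 genes. Slc7a5 was 30.8, 37.5 and 38.8 TPM under Scr and 39.6, 35.0 and 35.7 TPM with siKlf4. Slc3a2 was 139, 133 and 131 TPM under Scr and 129, 119 and 130.2 TPM with siKlf4, and it was lower in every siKlf4 library (log2 fold change -0.10, standard error 0.066, adjusted p = 0.309), whereas the other 2 overlapped.

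Vldlr, a receptor for lipoproteins and reelin that PERK and ATF4 can induce, passed the test in opposite directions. Vldlr (ENSMUSG00000024924.14, chr19:27216484-27254231) was 36.0, 30.2 and 27.4 TPM under Scr and 40.4, 44.7 and 43.0 TPM with siKlf4 in SMCs (log2 fold change 0.45, standard error 0.11, adjusted p = 0.0226), and on the numbered libraries 0.59 (adjusted p = 0.00986). In PDGFR-β+ cells it was 38.0, 47.8 and 37.2 TPM under Scr and 29.5, 34.8 and 25.1 TPM with siKlf4 (log2 fold change -0.45, standard error 0.14, adjusted p = 0.0394). The groups did not overlap in either cell type. Each call alone was fragile: the SMC rise was lost when any 1 of the 4 numbered libraries was left out (adjusted p up to 0.0795, without siKlf4 replicate 2), and the PDGFR-β+ fall was lost when any library except siKlf4 replicate 2 was left out (up to 0.113, without siKlf4 replicate 3). Between the cell types its siKlf4 effect differed by 0.90 (standard error 0.19, adjusted p = 0.0041), which passed with each of the 12 libraries left out.

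**Figure D3:**
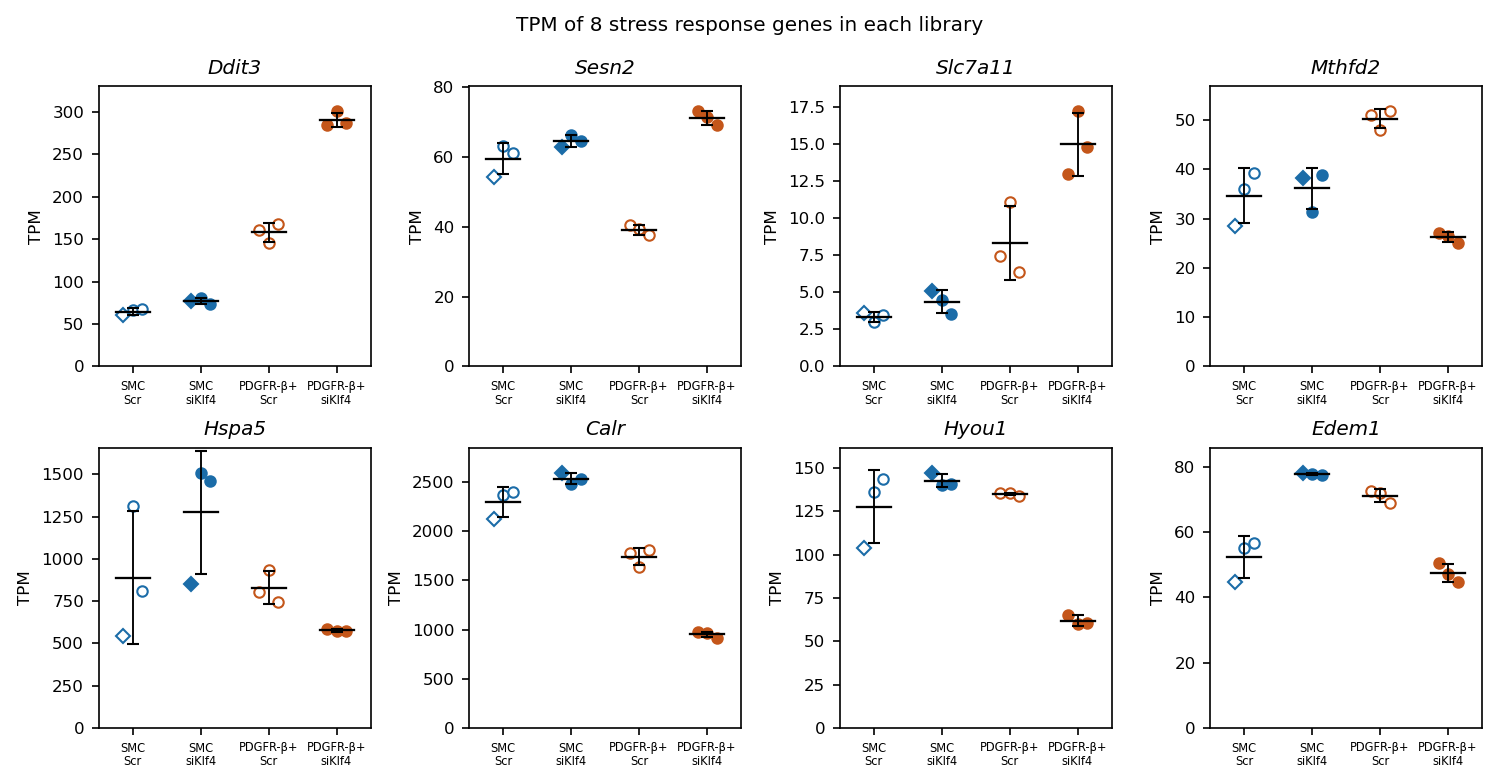
TPM of 8 of the genes in each library, with the mean (line) and SD (bar) of 3 libraries per group. Open symbols are Scr and filled symbols siKlf4, and diamonds are the unnumbered SMC libraries. Ddit3, Sesn2 and Slc7a11 are higher, and Mthfd2, Hspa5, Calr, Hyou1 and Edem1 lower, in all 3 PDGFR-β+ siKlf4 libraries than in the PDGFR-β+ Scr libraries. The Hspa5 values of the SMC groups overlap.

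Of the 13 ER chaperone genes, 10 fell and 0 rose in PDGFR-β+ cells, against 15.3% lower and 25.3% higher over all genes, and their median log2 fold change was -0.57. Pdia3, Dnajb9 and Sdf2l1 did not pass. Their summed level was 6921 to 7371 TPM in Scr and 4620.0 to 4809.9 TPM in siKlf4 libraries, so that this sum did not overlap between the groups. Beside it, the macrophage markers summed to the 28.6 to 29.9 and 18.7 to 22.8 TPM given above, and the smooth muscle markers to 5551 to 6408 and 4708 to 5003 TPM. These sums were carried by a few genes, Lyz2 in the first list and Acta2 and Tagln in the second. Of the less abundant markers, Csf1r in the first list and Cnn1 and Des in the second were also lower in every siKlf4 library. Others did not follow the sums. The Cd68 groups overlapped, at 6.04, 7.94 and 8.69 TPM under Scr against 8.20, 9.62 and 8.50 TPM with siKlf4. Myh11 (18.8 to 23.0 against 31.2 to 36.7 TPM), Lmod1 (54.9 to 58.2 against 82.1 to 87.4 TPM) and Smtn were higher in every siKlf4 library. The part of these markers in the fall was not tested.

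Hspa5 (ENSMUSG00000026864.13, chr2:34771970-34777547), which encodes BiP, the main ER chaperone and the partner that keeps the sensors inactive, was 806, 935 and 747 TPM under Scr and 587, 574 and 573 TPM with siKlf4 in PDGFR-β+ cells (log2 fold change -0.51, standard error 0.089, adjusted p = 0.00347). All 3 siKlf4 libraries lay below the Scr libraries and close to each other. With the SMC libraries in the same fit, which shares 1 estimate of the spread with the widely spread Hspa5 values of SMCs, the adjusted p was 0.161. Hsp90b1, which encodes GRP94, fell from 1407, 1322 and 1526 TPM to 784, 814 and 756 TPM (log2 fold change -0.85, standard error 0.075, adjusted p = 1.6e-04). Hyou1 (ENSMUSG00000032115.14, chr9:44379490-44392369), the large chaperone GRP170 that recharges BiP, fell most among the chaperones, from 135, 135 and 134 TPM to 65.3, 59.7 and 60.5 TPM, 45.8% of the Scr mean (log2 fold change -1.11, standard error 0.065, adjusted p = 2.8e-05). Its Scr libraries were nearly identical.

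The lectin chaperones, which fold glycoproteins, fell too. Calr (calreticulin) was the most abundant member in the Scr libraries of both cell types and fell from 1781, 1641 and 1808 TPM to 971, 962 and 918 TPM (log2 fold change -0.87, standard error 0.068, adjusted p = 9.3e-05). Canx (calnexin) fell from 770.2, 649 and 769 TPM to 498, 512 and 506 TPM (log2 fold change -0.52, standard error 0.082, adjusted p = 0.00219). Pdia3, the disulfide isomerase that works with both lectins, was 1141, 1059.8 and 1171 TPM under Scr and 1041, 1089.6 and 1025 TPM with siKlf4 and did not pass (log2 fold change -0.095, standard error 0.067, adjusted p = 0.297). The Pdia3 groups overlapped, although with median-ratio scaling its adjusted p was 0.0476.

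Of the other disulfide isomerases, Pdia6 fell from 339, 327 and 336 TPM to 189, 194 and 181 TPM (log2 fold change -0.83, standard error 0.06, adjusted p = 7.1e-05). Pdia4 fell from 389, 363 and 389 TPM to 266, 253 and 249 TPM (log2 fold change -0.57, standard error 0.064, adjusted p = 5.1e-04). In each, every siKlf4 library was lower. Among co-chaperones of BiP, Dnajc3 (P58IPK) fell from 130.4, 112 and 127 TPM to 77.9, 74.6 and 73.0 TPM (log2 fold change -0.70, standard error 0.079, adjusted p = 5.0e-04). Dnajb9 (ERdj4) was 54.6, 41.8 and 54.9 TPM under Scr and 39.6, 42.3 and 39.6 TPM with siKlf4 and did not pass (log2 fold change -0.30, standard error 0.11, adjusted p = 0.0729). Its Scr replicate 2 lay among the siKlf4 libraries, and without it the adjusted p was 0.00604. With median-ratio scaling Dnajb9 passed as lower, at an adjusted p of 0.0274.

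Of the other stress-induced ER proteins, Manf and Creld2 passed as lower. Manf, a stress-induced protein of the ER lumen that is also secreted, fell from 215, 208 and 191 TPM to 148, 134 and 131 TPM (log2 fold change -0.57, standard error 0.077, adjusted p = 0.0012). Creld2 was 77.4, 81.0 and 73.3 TPM under Scr and 64.2, 58.6 and 64.1 TPM with siKlf4 (log2 fold change -0.31, standard error 0.074, adjusted p = 0.0142). That call was lost without siKlf4 replicate 2, at an adjusted p of 0.0563, and with the SMC libraries in the same fit, at 0.153. Sdf2l1 was 49.6, 46.5 and 46.4 TPM under Scr and 44.1, 42.0 and 43.5 TPM with siKlf4 (log2 fold change -0.13, standard error 0.069, adjusted p = 0.161). Its groups did not overlap, and with median-ratio scaling it passed, at an adjusted p of 0.0176.

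In SMCs, 3 of the 13 chaperones rose (23.1%) and 0 fell, against 15.6% higher and 12.9% lower over all genes. Canx was 543, 552 and 577 TPM under Scr and 774, 716 and 718 TPM with siKlf4 (log2 fold change 0.40, standard error 0.062, adjusted p = 0.00512), and 0.34 (adjusted p = 0.00929) on the numbered libraries. Hsp90b1 was 1449.8, 1477 and 1538 TPM under Scr and 1978, 1737 and 1782 TPM with siKlf4 (log2 fold change 0.30, standard error 0.072, adjusted p = 0.0219), and 0.22 (adjusted p = 0.0251) on the numbered libraries. Each was higher in every siKlf4 library, but the Hsp90b1 call was lost without Scr replicate 2 (adjusted p = 0.0714) and without siKlf4 replicate 3 (0.0626). Dnajb9 was 65.5, 69.7 and 72.9 TPM under Scr and 80.9, 81.7 and 79.8 TPM with siKlf4 (log2 fold change 0.22, standard error 0.067, adjusted p = 0.0477). That call was lost in all 6 fits with a library left out, the adjusted p lying between 0.0623 and 0.143, and on the numbered libraries it was 0.18 (adjusted p = 0.0693).

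Hspa5 varied widely within the SMC groups. Its level was 541, 1314 and 809.7 TPM under Scr and 853, 1508 and 1463 TPM with siKlf4 (log2 fold change 0.57, standard error 0.35, adjusted p = 0.256), and the unnumbered library was the lowest of each group. A fit with a term for the naming gave an adjusted p of 0.0473, and the numbered libraries alone gave 0.53 (adjusted p = 0.16). Manf was 205, 343 and 339 TPM under Scr and 256, 307 and 306 TPM with siKlf4, and Creld2 69.8, 112 and 124 TPM under Scr and 122, 123 and 133 TPM with siKlf4. Each had its lowest Scr value in the unnumbered library, as did Sdf2l1 at 61.2 TPM. On the numbered libraries Creld2 moved from 0.34 to 0.11 (adjusted p = 0.316), and Manf turned from 0.0053 to -0.15 (adjusted p = 0.0482), that is, lower with siKlf4. The other 6 chaperones lay between -0.057 (Pdia4) and 0.17 (Hyou1) in SMCs and did not pass. Calr was among them at 2125, 2368 and 2397 TPM under Scr and 2593, 2478 and 2535 TPM with siKlf4, with groups that did not overlap. Hyou1 was 104, 136 and 143 TPM under Scr and 147, 140.4 and 141 TPM with siKlf4, and Dnajc3 139, 142 and 148 TPM under Scr and 154, 138 and 139 TPM with siKlf4. Both overlapped between the groups. Of the disulfide isomerases, Pdia3 was 1244, 1289 and 1275 TPM under Scr and 1378, 1245 and 1307 TPM with siKlf4. Pdia4 was 437, 505 and 527 TPM under Scr and 484, 456 and 468 TPM with siKlf4, and Pdia6 609, 699 and 702 TPM under Scr and 663, 634 and 640.3 TPM with siKlf4. All 3 overlapped, and the unnumbered Scr library was the lowest Scr library for each.

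The genes of ER degradation held the member with the largest fall. Herpud1 (ENSMUSG00000031770.16, chr8:94386438-94395377), which assembles the degradation complex in the ER membrane, was 71.3, 68.7 and 66.4 TPM under Scr and 35.2, 27.3 and 26.5 TPM with siKlf4 in PDGFR-β+ cells, 43.1% of the Scr mean (log2 fold change -1.20, standard error 0.11, adjusted p = 2.3e-04). Edem1 (ENSMUSG00000030104.9, chr6:108828641-108859356), which routes misfolded glycoproteins to degradation, fell from 72.7, 71.9 and 68.9 TPM to 50.4, 47.2 and 44.9 TPM (log2 fold change -0.57, standard error 0.073, adjusted p = 8.6e-04). The groups of both genes were well separated, and the calls held with each library left out. Sel1l, the partner of the ligase HRD1, was 75.9, 97.2 and 57.3 TPM under Scr and 53.5, 49.9 and 47.1 TPM with siKlf4 (log2 fold change -0.57, standard error 0.17, adjusted p = 0.0336). Its Scr libraries were widely spread, and the call held only without Scr replicate 3, the adjusted p otherwise lying between 0.0563 (without Scr replicate 2) and 0.0937 (without siKlf4 replicate 3).

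In SMCs, Edem1 rose from 44.9, 55.2 and 56.7 TPM to 78.1, 77.7 and 77.5 TPM (log2 fold change 0.57, standard error 0.10, adjusted p = 0.00684), and on the numbered libraries it was 0.46 (adjusted p = 0.00716). The 3 siKlf4 libraries were nearly identical, and the unnumbered Scr library was the lowest. Herpud1 was 60.7, 83.2 and 99.8 TPM under Scr and 62.8, 68.8 and 74.8 TPM with siKlf4 (log2 fold change -0.21, standard error 0.17, adjusted p = 0.397), and passed as lower without the unnumbered Scr library (adjusted p = 0.0445). Sel1l was 79.7, 96.2 and 133 TPM under Scr and 93.7, 85.9 and 88.5 TPM with siKlf4, with groups that overlapped.

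Among the sensors and transducers, Xbp1 and Eif2ak3 fell in PDGFR-β+ cells. Xbp1, the transcription factor whose mRNA IRE1 splices, was 103, 102 and 104 TPM under Scr and 73.7, 71.5 and 69.2 TPM with siKlf4 (log2 fold change -0.52, standard error 0.062, adjusted p = 6.5e-04). The groups were tight and far apart. Eif2ak3, the kinase PERK, was 31.5, 28.2 and 32.1 TPM under Scr and 25.4, 22.4 and 22.4 TPM with siKlf4 (log2 fold change -0.37, standard error 0.09, adjusted p = 0.0144). Its call was lost by a small margin without Scr replicate 1, siKlf4 replicate 2 or siKlf4 replicate 3, at adjusted p-values of 0.0502, 0.054 and 0.0522. Atf6 and Ern1, the other sensors, overlapped between groups, between 28.0 and 33.2 TPM and between 17.5 and 22.3 TPM, with log2 fold changes of -0.10 (adjusted p = 0.35) and -0.14 (adjusted p = 0.263), although with median-ratio scaling Ern1 passed as lower (adjusted p = 0.0351). In SMCs, 0 of the 4 passed by limma. Xbp1 was 168, 177 and 181 TPM under Scr and 171, 163 and 162 TPM with siKlf4 there, and Eif2ak3 23.7, 23.5 and 24.4 TPM under Scr and 27.8, 26.0 and 26.2 TPM with siKlf4. Atf6 lay between 22.6 and 28.2 TPM and Ern1 between 18.0 and 19.6 TPM. At an unadjusted p under 0.05 the count was also 0, the lowest being that of Eif2ak3 (unadjusted p = 0.0719), whose siKlf4 libraries all lay above its Scr libraries.

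**Figure D4:**
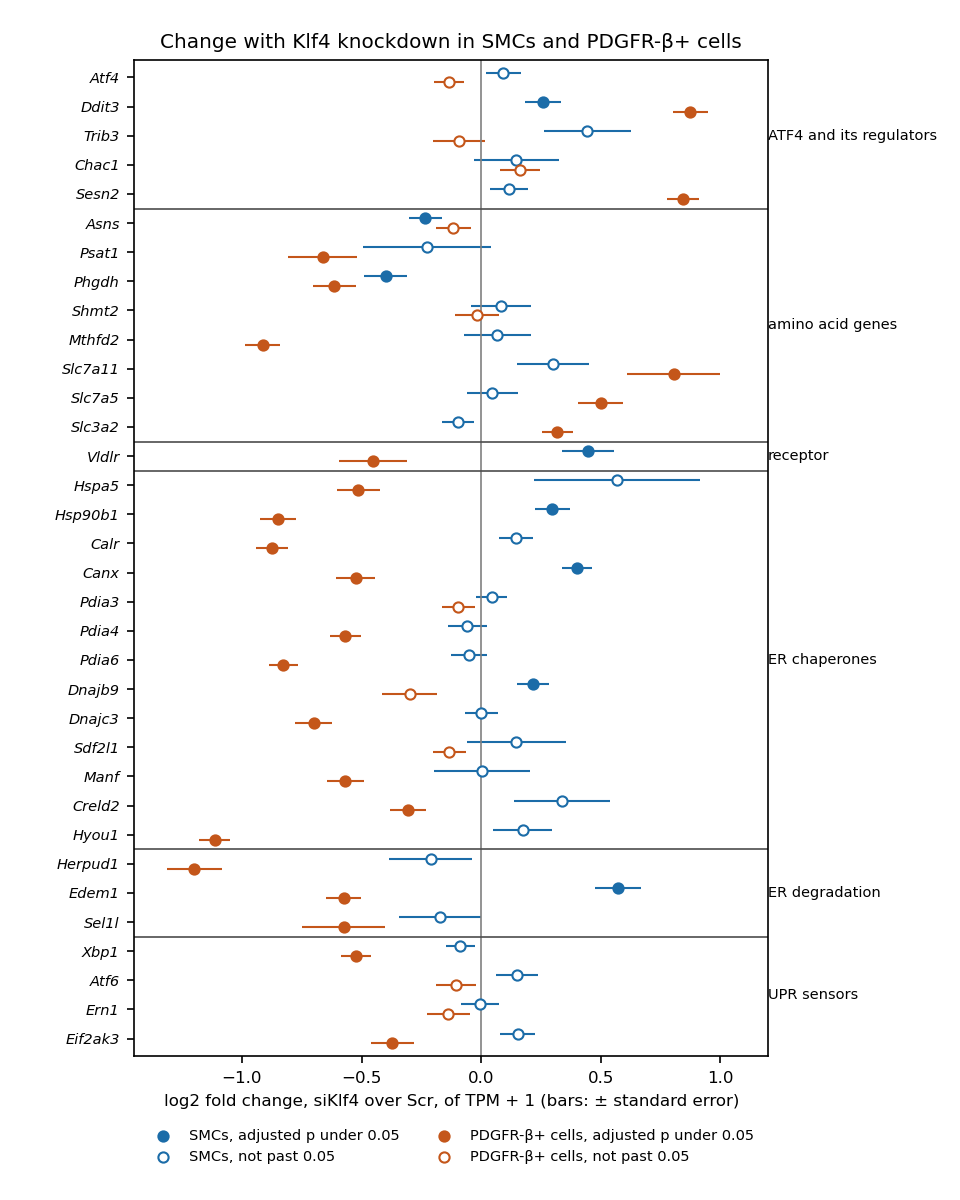
Log2 fold change of TPM + 1, siKlf4 over Scr, for each gene in SMCs (blue) and PDGFR-β+ cells (orange), with bars for ± 1 standard error from limma. Filled points passed an adjusted p of 0.05. The 20 ER genes all lie below 0 in PDGFR-β+ cells, 15 of them filled, while in SMCs 4 of the 20 are filled, all above 0.

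The difference between the cell types was tested as the siKlf4 effect in SMCs minus that in PDGFR-β+ cells, over the 12 libraries. It passed for 18 of the 34 genes, 14 with the higher value in SMCs and 4 with the higher value in PDGFR-β+ cells. Over all 13032 genes tested, 33.0% passed (14.5% with the higher value in SMCs, 18.5% with the lower). With median-ratio scaling the split of all calls moved from 1886 and 2411 to 2510 and 1913, and that of the members to 19 and 3. In the ER arm, 12 of 20 passed, each with the higher value in SMCs, and the median difference was 0.61. In the ATF4 arm, 2 passed in that direction (Mthfd2 and Vldlr) and 4 in the other (Ddit3, Sesn2, Slc7a5, Slc3a2), and the median difference was 0.04.

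The ER genes with the largest differences were Hyou1 at 1.29 (standard error 0.14, adjusted p = 6.3e-05), Hsp90b1 at 1.15 (standard error 0.10, adjusted p = 1.6e-05), Edem1 at 1.15 (standard error 0.12, adjusted p = 4.7e-05) and Calr at 1.02 (standard error 0.094, adjusted p = 2.0e-05). Hyou1 and Calr fell in PDGFR-β+ cells and did not pass in SMCs, whereas Hsp90b1 and Edem1 passed in both, in opposite directions. Canx and Vldlr also fell in PDGFR-β+ cells and rose in SMCs, which makes 4 such genes. Hspa5 missed the threshold at 1.08 (standard error 0.39, adjusted p = 0.0545), and on the numbered SMC libraries alone the difference was 1.04 (adjusted p = 0.0112). Creld2 and Manf missed it too, at adjusted p-values of 0.0512 and 0.0811, and passed on the numbered SMC libraries, at 0.0195 and 0.0142.

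For the genes that rose more in PDGFR-β+ cells, the differences were -0.73 (standard error 0.10, adjusted p = 2.1e-04) for Sesn2, -0.61 (standard error 0.10, adjusted p = 8.0e-04) for Ddit3, -0.45 (standard error 0.15, adjusted p = 0.0339) for Slc7a5 and -0.42 (standard error 0.085, adjusted p = 0.00324) for Slc3a2. The difference of Slc7a5 held in 5 of 12 fits with a library left out, the adjusted p rising to 0.0766 without SMC Scr replicate 3, and the other called differences held in 12 of 12. Slc7a11, with a similar size of -0.50 (standard error 0.26, adjusted p = 0.155), did not pass. Mthfd2 differed by 0.98 (standard error 0.16, adjusted p = 8.9e-04). Phgdh, which fell in both cell types, had a difference of 0.22 (standard error 0.13, adjusted p = 0.233), and whether the falls differ in size was not settled by this test. On the numbered SMC libraries 17 members differed with the higher value in SMCs and 4 with the higher value in PDGFR-β+ cells, and with the naming term 19 and 4. Of all genes, 1791 and 2203 differed in these directions on the numbered libraries. With the naming term the counts over all genes were 2167 and 2812, against 1886 and 2411 in the main fit.

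Levels in the Scr libraries were compared between the cell types. The tables were made separately for each cell type, so the Scr levels are set side by side as a description without a test. For 10 members, all 3 SMC Scr libraries lay above all 3 PDGFR-β+ Scr libraries, for 14 the reverse held, and 10 overlapped, while of all genes 29.2% lay higher in SMCs without overlap and 28.3% lower. The members higher in SMCs were thus at the share of all genes (29.4%), and those higher in PDGFR-β+ cells above it (41.2%). Calr, Pdia3, Pdia4, Pdia6, Dnajb9, Dnajc3 and Sdf2l1 were among those higher in SMCs, as were Xbp1, Atf4 and Sesn2. Pdia6 differed most of these, at 670.2 ± 52.8 TPM in SMCs and 334 ± 5.91 TPM in PDGFR-β+ cells (SD, n = 3), a 2.01-fold ratio. Xbp1 stood at 175 ± 6.45 and 103 ± 1.17 TPM (SD, n = 3), a 1.70-fold ratio.

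Of the 14 genes of the ATF4 arm, 2 (14.3%), Atf4 and Sesn2, were higher in all 3 SMC Scr libraries, against 29.2% of all genes. In all 3 PDGFR-β+ Scr libraries 9 (64.3%) were higher, against 28.3% of all genes. Ddit3 was 158 ± 11.2 TPM there and 64.5 ± 3.86 TPM in SMCs (SD, n = 3), a 2.46-fold ratio, and Slc7a11 8.31 ± 2.50 and 3.34 ± 0.327 TPM, a 2.49-fold ratio. Trib3, Chac1, Phgdh, Shmt2, Mthfd2, Slc7a5 and Vldlr were also higher in all 3 PDGFR-β+ Scr libraries, and so were Canx, Edem1, Atf6, Ern1 and Eif2ak3. Asns, Psat1, Slc3a2, Hspa5, Hsp90b1, Manf, Creld2, Hyou1, Herpud1 and Sel1l overlapped. In order of level per length, Calr led in SMCs (2297 ± 149.6 TPM), followed by Hsp90b1, Pdia3 and Hspa5, the last 2 of which overlapped. The same 4 led in PDGFR-β+ cells, with Calr at 1743 ± 89.9 TPM and the Hspa5 and Canx levels there overlapping. At the other end, Slc7a11, Trib3 and Chac1 were the lowest in each cell type.

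**Figure D5:**
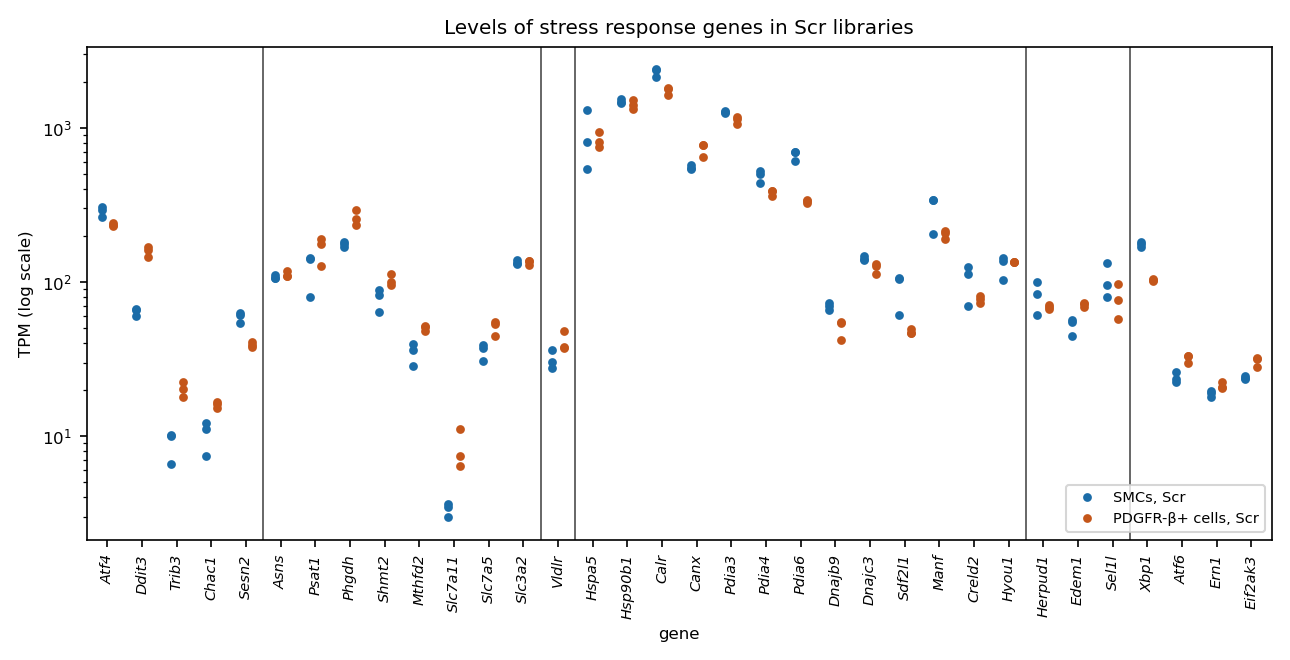
TPM of the 34 genes in the Scr libraries, on a log axis, with 3 points per gene for SMCs (blue) and 3 for PDGFR-β+ cells (orange). Vertical lines divide, from the left, the core group of the ATF4 arm, the amino acid genes, Vldlr, the ER chaperones, the ER degradation genes and the sensors. Calr, Hsp90b1 and Pdia3 are the highest, and Ddit3 and Slc7a11 lie higher in PDGFR-β+ cells without overlap.

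Summed over the ER arm, the level was 8016 to 9590.1 TPM in SMC Scr and 10052 to 10288 TPM in SMC siKlf4 libraries, the unnumbered Scr library being the lowest. In PDGFR-β+ cells it was 7339.9 to 7754 TPM with Scr and 4876 to 5077 TPM with siKlf4. The sum over the ATF4 arm overlapped in PDGFR-β+ cells, at 1356 to 1464 TPM with Scr and 1363 to 1436 TPM with siKlf4. The 5 core genes alone summed to 455 to 479 and 594 to 633 TPM, and the 8 amino acid genes to 841 to 962 and 744 to 768 TPM. Such sums are carried by their most abundant genes.

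Further genes of the same pathways were read from 8 lists. The counts are set against the 15.3% of all genes that fell and 25.3% that rose in PDGFR-β+ cells, and the 12.9% and 15.6% in SMCs. Among 22 other ER folding genes, 8 fell (36.4%) and 2 rose (9.09%) in PDGFR-β+ cells, with a median log2 fold change of -0.20. Among the falls, Uggt1, which checks glycoprotein folding, was at 92.4 ± 16.5 TPM with Scr and 34.1 ± 4.34 TPM with siKlf4 (SD, n = 3, log2 fold change -1.40, adjusted p = 3.2e-04), and Dnajb11, a co-chaperone of BiP, at 203 ± 13.5 TPM with Scr and 92.0 ± 10.1 TPM with siKlf4 (SD, n = 3, log2 fold change -1.14, adjusted p = 1.5e-04). Ero1lb, an ER oxidase, was at 4.06 ± 0.1 TPM with Scr and 1.12 ± 0.269 TPM with siKlf4 (SD, n = 3, log2 fold change -1.27, adjusted p = 5.5e-04). In SMCs 6 rose and 1 fell, with a median of 0.06 (5 and 3 on the numbered libraries). Ero1l, the paralog of Ero1lb, led there at 68.7 ± 0.623 TPM with Scr and 161 ± 9.45 TPM with siKlf4 (SD, n = 3, log2 fold change 1.21, adjusted p = 4.4e-04), followed by Fkbp10, a collagen chaperone, with a log2 fold change of 0.52.

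The lists for translocation and degradation held more falls than rises in PDGFR-β+ cells. Of 16 genes of ER translocation, 6 fell (37.5%) and 1 rose there. In SMCs 3 rose (18.8%) and 2 fell (12.5%), close to the shares of all genes. Srpr, a subunit of the signal recognition particle receptor, was at 152 ± 2.82 TPM with Scr and 57.1 ± 4.22 TPM with siKlf4 (SD, n = 3, log2 fold change -1.40, adjusted p = 1.8e-05) in PDGFR-β+ cells. Spcs2, of the signal peptidase, was at 79.4 ± 15.9 TPM with Scr and 27.8 ± 0.373 TPM with siKlf4 (SD, n = 3, log2 fold change -1.46, adjusted p = 2.0e-04) there and at 44.4 ± 11.0 TPM with Scr and 70.3 ± 11.3 TPM with siKlf4 (SD, n = 3, log2 fold change 0.67, adjusted p = 0.0351) in SMCs. The Spcs2 change did not pass on the numbered SMC libraries (adjusted p = 0.153). Of 14 further ER degradation genes, 5 fell (35.7%) and 0 rose in PDGFR-β+ cells, Ube2j1, an ER ubiquitin-conjugating enzyme, being the lowest at 127 ± 4.81 TPM with Scr and 59.8 ± 3.97 TPM with siKlf4 (SD, n = 3, log2 fold change -1.07, adjusted p = 6.1e-05). In SMCs 3 rose and 2 fell, among them Os9, a lectin of ER degradation, with a log2 fold change of -0.49.

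On the side of ATF4, 28 further targets gave 3 rises and 8 falls in PDGFR-β+ cells and 3 rises and 5 falls in SMCs, which in PDGFR-β+ cells is 10.7% higher and 28.6% lower, and in SMCs 10.7% higher and 17.9% lower. On the numbered SMC libraries 2 rose and 10 fell. Atf5, a related transcription factor, was at 277 ± 22.3 TPM with Scr and 134 ± 13.4 TPM with siKlf4 (SD, n = 3, log2 fold change -1.05, adjusted p = 1.9e-04) in PDGFR-β+ cells, and Atf3 at 3.71 ± 0.501 TPM with Scr and 7.88 ± 0.902 TPM with siKlf4 (SD, n = 3, log2 fold change 0.92, adjusted p = 0.00145). In SMCs the glutamine transporter gene Slc1a5 was at 196 ± 19.6 TPM with Scr and 76.1 ± 12.8 TPM with siKlf4 (SD, n = 3, log2 fold change -1.36, adjusted p = 0.00119), and Cth, which makes cysteine, at 36.8 ± 4.80 TPM with Scr and 14.9 ± 1.57 TPM with siKlf4 (SD, n = 3, log2 fold change -1.25, adjusted p = 0.0013). Both of these fell, and their siKlf4 effects differed from those in PDGFR-β+ cells by -1.22 and -1.37 (adjusted p = 9.2e-04 and 3.0e-04). Of 20 aminoacyl-tRNA synthetase genes, which ATF4 can also induce, 6 rose and 0 fell in SMCs. In PDGFR-β+ cells 0 rose and 4 fell, 20.0% against 15.3% of all genes, and 7 fell with median-ratio scaling. Rars led in SMCs (log2 fold change 0.47), and Iars in PDGFR-β+ cells (-0.60).

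Of 12 genes of the machinery around eIF2, 8 rose and 0 fell in SMCs, 66.7% against 15.6% of all genes higher, and the same counts were found on the numbered libraries. Ppp1r15b, which recruits the phosphatase that reverses eIF2α phosphorylation, was at 42.7 ± 0.7 TPM with Scr and 63.2 ± 1.30 TPM with siKlf4 (SD, n = 3, log2 fold change 0.55, adjusted p = 0.0019). In PDGFR-β+ cells 2 rose and 2 fell (2 and 4 with median-ratio scaling), and the log2 fold changes ranged from -0.74 to 1.73, against 0.011 to 0.63 in SMCs. Eif2ak2, the kinase PKR that senses double-stranded RNA, was at 67.5 ± 11.3 TPM with Scr and 225 ± 8.08 TPM with siKlf4 (SD, n = 3, log2 fold change 1.73, adjusted p = 5.3e-05) there, and rose in SMCs as well, with a log2 fold change of 0.63. Of 10 partners of the sensors, 3 rose and 0 fell in PDGFR-β+ cells, a share near the 25.3% of all genes higher, but 2 rose and 3 fell with median-ratio scaling. The largest rises were those of Bcl2l11 and Bbc3, pro-apoptotic genes that CHOP and p53 can induce. Bcl2l11 was at 7.13 ± 0.469 TPM with Scr and 18.8 ± 3.94 TPM with siKlf4 (SD, n = 3, log2 fold change 1.26, adjusted p = 8.0e-04), and Bbc3 at 13.4 ± 0.312 TPM with Scr and 32.7 ± 0.935 TPM with siKlf4 (SD, n = 3, log2 fold change 1.22, adjusted p = 3.2e-05). In SMCs 1 of the 10 rose and 1 fell.

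Of 18 cytosolic chaperone genes, 3 rose and 3 fell in PDGFR-β+ cells (2 and 5 with median-ratio scaling), and 7 rose and 3 fell in SMCs. Against the 0 rises and 10 falls of the 13 ER chaperones, no difference between the lists was tested. Hsph1, a cytosolic HSP110, was at 256 ± 1.91 TPM with Scr and 478 ± 7.30 TPM with siKlf4 (SD, n = 3, log2 fold change 0.90, adjusted p = 3.7e-05) in PDGFR-β+ cells, and rose in SMCs too (log2 fold change 0.69). Hspb1, a small heat shock protein, fell in both, with log2 fold changes of -0.40 in PDGFR-β+ cells and -0.75 in SMCs.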

How the data were processed

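Expression was measured by paired-end mRNA sequencing of 12 libraries, 3 per group. Alignment of the trimmed reads by the authors used HISAT2, mm10 and a GENCODE annotation (release not given in the sources used here). Abundances came from StringTie and ballgown. The deposited values are TPM, in which reads are divided by transcript length and each library is scaled to 1000000. TPM keeps no sequencing depth, so depth is unknown, precision rests on 3 libraries per group, and a rise in abundant genes lowers the rest. The authors' DESeq2 test needs counts and was not repeated.

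Values were analysed here as log2(TPM + 1), where a gene averaged 1 TPM or more, with limma 3.58.1 in R 4.3.3 (eBayes with trend, two-sided, Benjamini-Hochberg over all genes tested, threshold 0.05). Each cell type was fitted alone, and the difference between cell types was the interaction over 12 libraries, each effect being taken within its own table. Alternatives were another pseudocount, another or no filter, other scalings, no trend, a fold limit, other samples in the fit, a term dividing unnumbered from numbered SMC columns, the numbered SMC libraries alone, a replicate block and each library left out. Fold changes on this scale understate changes of low genes. With 3 libraries against 3, an exact permutation test cannot go below p = 0.1, so none is given. The fits were also run on simulated data, with noise drawn independently for each gene and library. Such data cannot show how deviations shared between SMC libraries act on the fits. The 2 unnumbered SMC columns were used as members of their groups. Promoters came from RefSeq (GRCm38.p6), gene positions and exons from GENCODE M21 (GRCm38), in which 52403 of 52636 identifiers were found.

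The members and lists were chosen with earlier results of these data known. All 34 members are named, with values per library for those called in any comparison or above a mean of 100 TPM in a group, and the others at least by range. Of the 8 further lists, at most 3 called genes per list and cell type, those with the largest change, are named.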

Additional observations from a re-analysis of the deposited data

Results flagged for a closer look

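The siKlf4 effect differed between SMCs and PDGFR-β+ cells for 18 of the 34 genes, by the interaction term of limma over the 12 libraries (adjusted p under 0.05). As log2 differences, SMCs minus PDGFR-β+ cells, these were 1.29 for Hyou1, 1.15 for Hsp90b1, 1.15 for Edem1, 1.02 for Calr, 0.99 for Herpud1, 0.98 for Mthfd2, 0.92 for Canx, 0.90 for Vldlr, 0.78 for Pdia6, 0.70 for Dnajc3, 0.52 for Eif2ak3, 0.52 for Dnajb9, 0.51 for Pdia4 and 0.44 for Xbp1. In the other direction they were -0.73 for Sesn2, -0.61 for Ddit3, -0.45 for Slc7a5 and -0.42 for Slc3a2. Klf4 itself differed by 1.19 (21.9% of the Scr mean left in SMCs and 9.16% in PDGFR-β+ cells), and its part in the differences was not tested.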

How the results depend on the processing

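Counts of members called changed most in SMCs. Without a filter on low values, 3 rose and 1 fell in SMCs, 5 rose and 17 fell in PDGFR-β+ cells, and 14 and 3 differed. Without a trend in eBayes, 1 fell in SMCs. When changes also had to reach 1 on the log2 scale, 0 rose and 0 fell in SMCs, 0 rose and 2 fell in PDGFR-β+ cells, and 4 differed with the higher value in SMCs and 0 with the lower. With 1 library left out in turn, 2 to 4 rose and 0 to 2 fell in SMCs, 4 to 5 rose and 16 to 18 fell in PDGFR-β+ cells, and 14 to 17 and 3 to 5 differed. In SMCs, Manf turned from 0.0053 to -0.15 (adjusted p = 0.0482) on the numbered libraries. The same-numbered PDGFR-β+ libraries did not deviate together (correlations of 0.073, -0.016 and 0.0043). In SMCs the 2 numbered pairs correlated at 0.185 and 0.199, above the 0.050 and 0.048 of numbered libraries across pairs. The unnumbered SMC libraries correlated at 0.361. The main fits did not take the numbers as a pairing, and whether SMC replicates share an effect was not tested. With a replicate block, 5 members rose and 19 fell in PDGFR-β+ cells, 4 rose and 2 fell in the numbered SMC libraries, and 16 and 4 differed. A pseudocount of 0.1 TPM gave the same counts of members called as 1 TPM in each comparison. Baseline counts stayed at 10 to 14 members higher in SMCs and 14 to 15 higher in PDGFR-β+ cells with a Scr library left out. Depth, and so counting error, is unknown for TPM.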
